A study of Mus musculus with 6 samples.

Results

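The genes described here are the platelet-derived growth factor (PDGF) genes measured in stromal cells of the inflamed mouse colon, namely the 4 ligand genes *Pdgfa*, *Pdgfb*, *Pdgfc* and *Pdgfd*, the receptor gene *Pdgfra* and the receptor-like gene *Pdgfrl*. They were chosen by symbol, and the 6 symbols were found among the 20327 gene symbols of each library. PDGF ligands are secreted as dimers that bind receptor tyrosine kinases on mesenchymal cells and promote the growth, migration and survival of these cells. The A and B chains are cut into their active form by proprotein convertases inside the cell, whereas the C and D chains leave the cell with an additional CUB domain that an extracellular protease has to remove. In the intestine, PDGFRA is a marker of fibroblasts, and the fibroblasts that lie directly under the epithelium carry the most of it.

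RNA was obtained from the colon of C57BL/6 mice with the *Il11-Egfp* transgene, a bacterial artificial chromosome in which *Egfp* and a polyA signal had been placed within *Il11*. At 9 to 15 weeks of age the male mice drank water with 1.5% dextran sulfate sodium (DSS), which injures the colonic epithelium and causes colitis, for 5 days and then plain water. On day 7, cells without Ter119, CD45, CD31 and EpCAM on their surface, which leaves out red cells, leukocytes, endothelial cells and epithelial cells, were sorted into EGFP- (labelled EGFP-Negative) and EGFP+ (labelled EGFP-Positive) cells. Both groups carried the transgene, had received DSS and had passed the same gate, so that neither is an untreated control. EGFP was driven by the *Il11* sequences of the transgene, in 1 line chosen because *Egfp* followed *Il11*. Each group has 3 libraries, and the methods name 3 mice. According to the methods, the sorted EGFP+ cells were not entirely pure. The part of carried-over cells in low EGFP+ levels was not tested. The comparison asks how cells that use the *Il11* reporter differ from the other stromal cells of the inflamed colon.

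The libraries were made by 5′Tag-seq, which counts sequence tags from the 5′ side of polyA transcripts, and each value is the number of tags of a gene. The tags summed to 1057170, 1078179 and 1169817 in EGFP- replicates 1, 2 and 3, and to 1046538, 1022851 and 1049048 in EGFP+ replicates 1, 2 and 3. A floor of 3 tags in a library equals 2.56 to 2.93 CPM (tags scaled to these totals). Since PCR copies of a molecule can be counted as separate tags, the exact counting intervals and floors cover counting error only. *Il11* had 28, 51 and 89 tags in the EGFP- libraries and 1357, 732 and 2658 tags in the EGFP+ libraries, in the direction of the labels. Tags of reporter transcripts can be among them, because the transgene contains the start of *Il11*.

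The groups were compared with edgeR's quasi-likelihood test for all genes that reached 10 tags in 3 or more libraries. A call required an adjusted p (Benjamini-Hochberg) below 0.05 together with a difference of more than 2-fold. The p-values of this test measure the spread between these libraries. A second fit, without the filter, is used below for genes under it. Its variance was that shared by genes of similar level, so its p-values do not measure a gene's own spread. Of the 9334 tested genes, 3.44% were called higher and 6.37% were called lower in EGFP+ than in EGFP- cells. The PDGF genes that passed this filter were *Pdgfa*, *Pdgfc*, *Pdgfd* and *Pdgfra*, 4 of 6. *Pdgfa* and *Pdgfc* were called lower in EGFP+ cells, and neither *Pdgfd* nor *Pdgfra* was called. *Pdgfa* and *Pdgfc* reached 10 tags in all 3 EGFP- libraries, whereas in EGFP+ cells *Pdgfa* reached it in 1 library and *Pdgfc* in 0. They therefore passed the filter through the EGFP- libraries, and the count of 2 of 4 is no measure of how often PDGF genes were lower. *Pdgfb* and *Pdgfrl* stayed under the filter and are described by their tags.

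*Pdgfa* encodes the A chain, a ligand of PDGFRA that epithelial and smooth muscle cells are known to make. In GRCm38 the gene covers 138976014 to 138997370 on chromosome 5, minus strand, with 7 annotated transcripts. It had 18, 33 and 40 tags in EGFP- replicates 1, 2 and 3, and 7, 6 and 14 tags in EGFP+ replicates 1, 2 and 3. The highest EGFP+ library, replicate 3 at 13.4 CPM after TMM scaling (normalized CPM), was below the lowest EGFP- library, replicate 1 at 17.2 normalized CPM. The groups thus did not overlap, as for 16.7% of tested genes in this direction. The mean was 27.0 ± 8.58 normalized CPM in EGFP- and 8.95 ± 3.87 normalized CPM in EGFP+ cells (mean ± SD, n = 3). The fitted level was 2.98-fold lower in EGFP+ cells, or -1.58 as log2 fold change (SE 0.377, 95% interval -2.37 to -0.78, adjusted p = 0.00672 in edgeR). The call held whichever of the 6 libraries was left out, where the log2 fold change lay between -1.99 and -1.36, and the highest adjusted p in edgeR was 0.0456, without EGFP+ replicate 2. In bulk RNA of sorted cells, fewer cells of a type and less RNA per cell cannot be told apart, here and for the other genes below.

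*Pdgfb* encodes the B chain, which endothelial cells and platelets are known to release and which recruits pericytes to vessels. The gene covers 79995874 to 80014977 on chromosome 15, minus strand. It had 3, 1 and 6 tags in EGFP- replicates 1, 2 and 3, and 0 tags in each EGFP+ library. Each EGFP- library had a tag and no EGFP+ library had one, but the tags were at or under the floor in 2 of the 3 EGFP- libraries. The EGFP- mean of 2.91 ± 1.99 normalized CPM (mean ± SD, n = 3) was below the 3.03 normalized CPM that 3 tags stand for in EGFP+ libraries, so no fold change is given. In a fit of all 20327 symbols without a filter, in which 3.77% of symbols were called lower, *Pdgfb* was not called (adjusted p = 0.0638 in edgeR, and 0.0506 to 0.395 over the alternatives that gave a value). Over the libraries of a group, 10 tags stood against 0, and the exact 95% counting interval of their ratio after scaling begins at 2.01.

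*Pdgfc* encodes a CUB-domain ligand that binds PDGFRA after tissue plasminogen activator or a similar protease has cut it. The gene occupies 81036416 to 81214040 on the plus strand of chromosome 3. It had 15, 18 and 19 tags in EGFP- replicates 1, 2 and 3, and 1, 2 and 1 tags in EGFP+ replicates 1, 2 and 3. The EGFP- libraries were close to each other, from 14.3 to 17.0 normalized CPM, and each EGFP+ library was under the floor of 3 tags. The means were 15.6 ± 1.32 and 1.35 ± 0.594 normalized CPM (mean ± SD, n = 3). Over the libraries of a group, 52 tags stood against 4, a ratio of 11.6 after scaling (exact 95% counting interval 4.28 to 44.3). The fitted log2 fold change was -3.43 (SE 0.542, 95% interval -4.57 to -2.29, adjusted p = 0.00018 in edgeR). With 1 or 2 tags in each EGFP+ library, this fitted value depends on the prior count. Among the 4 tested PDGF genes, *Pdgfc* had the largest fitted difference between the groups, and it was called in all 6 fits without a library.

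*Pdgfd* encodes the second ligand with a CUB domain. The gene spans 6168584 to 6378850 on the plus strand of chromosome 9. Its tags numbered 28, 11 and 33 in EGFP- replicates 1, 2 and 3, and 5, 18 and 21 in EGFP+ replicates 1, 2 and 3. The groups overlapped, since EGFP- replicate 2 was below EGFP+ replicates 2 and 3. The mean level was 21.4 ± 9.56 normalized CPM in EGFP- and 14.5 ± 8.05 normalized CPM in EGFP+ cells (mean ± SD, n = 3), or -0.55 as log2 fold change (SE 0.424, 95% interval -1.44 to 0.34, adjusted p = 0.458 in edgeR). The interval of the ratio of EGFP+ to EGFP- cells, 0.37 to 1.27, holds both equal levels and levels more than 2-fold lower. Leaving out EGFP+ replicate 1 brought the log2 fold change to -0.16, and leaving out EGFP- replicate 2 brought it to -0.86, neither of them called.

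Tags of the 4 ligand genes together numbered 64, 63 and 98 in the EGFP- libraries and 13, 26 and 36 in the EGFP+ libraries. Every EGFP+ library had fewer ligand tags than every EGFP- library, where 16.7% of single tested genes did not overlap in this direction. The sum includes *Pdgfa* and *Pdgfc*, which were called lower, whereas the groups overlapped for *Pdgfd*. This sum is a description without a test.

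*Pdgfra* encodes a receptor tyrosine kinase that binds the A, B and C chains. The gene covers 75152292 to 75198215 on chromosome 5, plus strand, with 9 annotated transcripts. *Pdgfra* had 742, 661 and 663 tags in EGFP- replicates 1, 2 and 3, and 768, 688 and 705 tags in EGFP+ replicates 1, 2 and 3. In normalized CPM these were 708.5, 622.8 and 544.4 in EGFP- libraries and 814, 698.5 and 672.3 in EGFP+ libraries. The groups overlapped, as EGFP- replicate 1 was above EGFP+ replicates 2 and 3, while for each replicate number the EGFP+ library was above the EGFP- library. The means were 625.2 ± 82.1 and 728.3 ± 75.4 normalized CPM (mean ± SD, n = 3). On the log2 scale the difference was 0.22 (SE 0.168, 95% interval -0.13 to 0.57, adjusted p = 0.449 in edgeR). Expressed as a ratio of EGFP+ to EGFP- cells, the interval ran from 0.913 to 1.49. A missed threshold does not show equal levels, and the interval did not reach 2-fold in either direction.

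*Pdgfrl* encodes a secreted protein that resembles the extracellular part of PDGF receptors. The gene covers 40926212 to 40990785 on chromosome 8, plus strand. It had 9, 2 and 5 tags in EGFP- replicates 1, 2 and 3, and 0, 0 and 2 tags in EGFP+ replicates 1, 2 and 3. The groups overlapped after scaling, where EGFP- replicate 2 stood at 1.88 and EGFP+ replicate 3 at 1.91 normalized CPM. Together, 16 tags stood against 2, a ratio of 7.16 after scaling (exact 95% counting interval 1.68 to 64.2). In the fit without a filter the gene was not called (adjusted p = 0.0968 in edgeR, and 0.0261 to 0.565 over the alternatives). It was called in 1 fit only, the one without EGFP+ replicate 3, which held the EGFP+ tags (adjusted p = 0.0261 in edgeR).

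**Figure D1:**
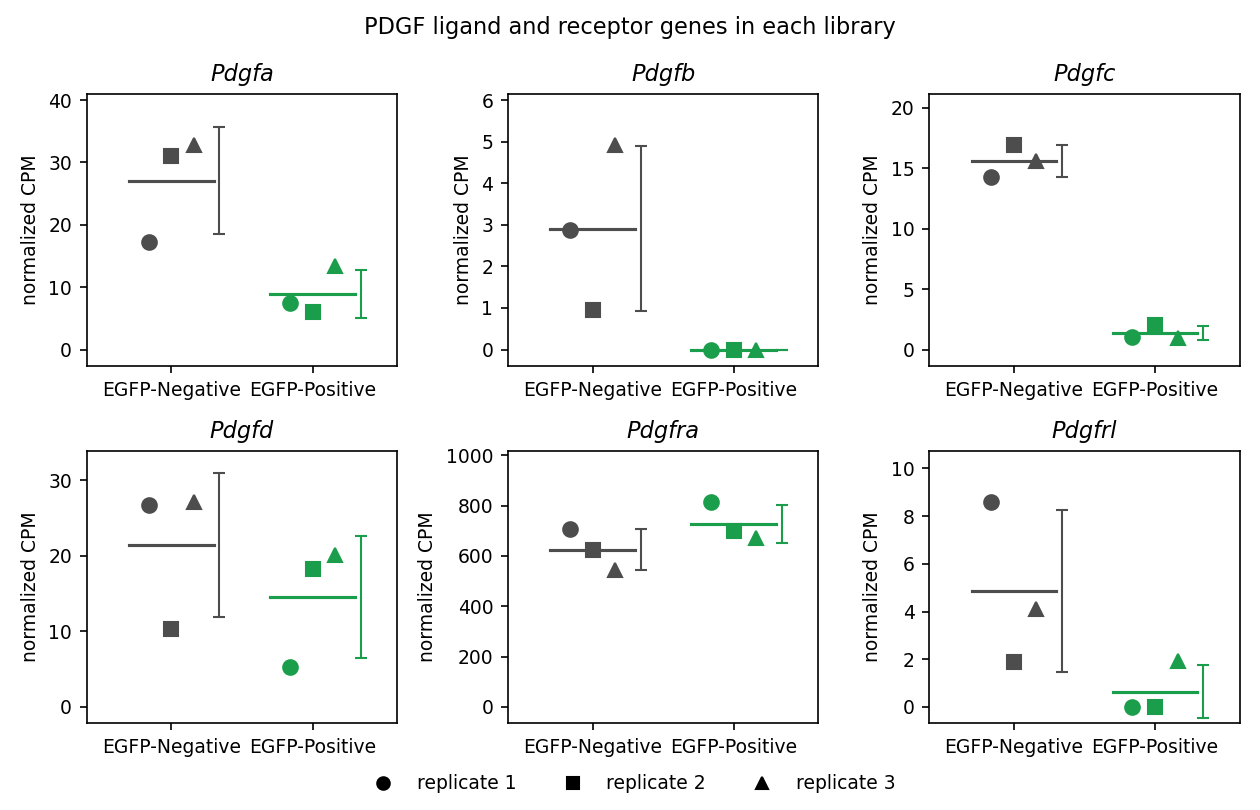
Normalized CPM of the 6 PDGF genes (vertical axes, each on its own scale from 0) in EGFP-Negative and EGFP-Positive libraries, where symbols are single libraries, horizontal lines are group means and bars are SD (n = 3). The EGFP-Positive libraries of *Pdgfa* (at most 13.4) and *Pdgfc* (at most 2.03) are below all EGFP-Negative libraries, whereas those of *Pdgfd* and *Pdgfra* overlap with them.

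Few 50-nt windows at the annotated transcript starts of these genes are shared with other genes, and the tags themselves were not examined. For *Pdgfa*, *Pdgfb*, *Pdgfc*, *Pdgfd* and *Pdgfrl*, 0 of the 50-nt windows in the first 300 nt of the annotated transcripts occurred in a transcript of another gene. For *Pdgfra*, 12 of 1648 windows (0.728%) did. Antisense genes overlap *Pdgfa* (*6330403L08Rik*), *Pdgfb* (*Gm41361*), *Pdgfc* (*Gm16000*) and *Pdgfra* (*Gm42802* and *Gm42803*), and *Ddi1* lies within *Pdgfd* on the other strand. On the same strand, the microRNA genes *Mir7213* and *Mir7025* overlap *Pdgfb* and *Pdgfra*. The authors mapped the tags in one orientation.

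The promoter of *Pdgfc* is shown, a choice made from its fitted difference, the largest of the tested PDGF genes. *Pdgfa* was called lower as well, and the promoters of *Pdgfa*, *Pdgfd* and *Pdgfra* are not shown. Promoters were listed for 4 of the 6 genes in the RefSeq table (GRCm38.p6). The window is chr3:81036166-81036415 on the plus strand, the 250 bases before the first base of the gene. Capitals mark a CArG box, the motif that serum response factor is known to bind. This motif was chosen after the sequence had been read and after the other 3 motifs had given no match there.
*Pdgfc*: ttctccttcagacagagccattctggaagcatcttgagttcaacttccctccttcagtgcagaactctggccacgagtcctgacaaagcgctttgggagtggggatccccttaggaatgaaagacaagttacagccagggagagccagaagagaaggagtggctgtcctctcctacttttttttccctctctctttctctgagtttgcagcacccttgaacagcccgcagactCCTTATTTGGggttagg
The CArG box was searched on both strands and was present in 1.5% of the 32851 listed promoters of the same length. The GC box GGGCGG (32.7% of promoters), the AP-1 motif TGANTCA (6.7%) and the TATA box TATAAA (12.4%), searched on both strands, had no match in the *Pdgfc* window. A match is a description of these letters only.

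Other tested genes were compared with each tested PDGF gene by Pearson's r of their log2 normalized CPM (prior count 2) over the 6 libraries, for genes that averaged 30 tags or more. These r values are the extremes among 4928 genes (4927 for *Pdgfra*), both groups enter them, and they serve as a description. For *Pdgfc* they depend on the prior count, as its EGFP+ libraries had 1 or 2 tags. For *Pdgfc* the most similar genes were *Anxa1* (r = 0.996), *Utrn* (r = 0.996) and *Cspg4* (r = 0.995), whose log2 fold changes were -1.27, -1.13 and -2.32. *Cspg4* encodes a proteoglycan of pericytes. The most opposed genes were *Abhd17c* (r = -0.996), *Mmp10* (r = -0.996) and *Ereg* (r = -0.995), with log2 fold changes of 3.18, 5.00 and 2.35. *Mmp10* encodes a matrix metalloproteinase and *Ereg* an EGF-family ligand. *Pdgfa* was most like *Daam1* (r = 0.995), *Cdk11b* (r = 0.988) and *Ackr3* (r = 0.986), and most unlike *Ssh1* (r = -0.994), *Lrp1* (r = -0.988) and *Mrps21* (r = -0.988). LRP1 is an endocytic receptor. *Pdgfd* followed *Dpm1* (r = 0.979), *Nr2c2* (r = 0.971) and *LOC100862468* (r = 0.964), and ran opposite to *Atp2c1* (r = -0.973), *Rps6ka3* (r = -0.97) and *Poldip3* (r = -0.959). *Pdgfra* followed *Epn2* (r = 0.993), *Hmgb1* (r = 0.99) and *Ubl7* (r = 0.988), and ran opposite to *Tpst1* (r = -0.993), *Appl1* (r = -0.991) and *Pspc1* (r = -0.981). *Tpst1*, a sulfotransferase gene, had a log2 fold change of -1.03, and those of the other 5 were between -0.18 and 0.73.

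PDGF ligands are handled by proteases and binding proteins, among them the proprotein convertases, and 10 of 12 such genes passed the filter. Of these, 2 were called lower and 0 higher in EGFP+ cells (2 higher and 2 lower at an unadjusted p under 0.05 in edgeR, 0 higher and 1 lower in DESeq2), with a median log2 fold change of -0.08 beside -0.01 over all tested genes. *Plat*, which encodes the tissue plasminogen activator that releases active PDGF-CC, had 367, 272 and 356 tags in EGFP- replicates 1, 2 and 3 and 90, 94 and 131 tags in EGFP+ replicates 1, 2 and 3. All EGFP+ libraries were far below all EGFP- libraries, with -1.51 as log2 fold change (SE 0.182, adjusted p = 1.11e-05 in edgeR). *Pcsk6*, which encodes a proprotein convertase, had 13, 23 and 17 tags in EGFP- and 4, 4 and 8 tags in EGFP+ libraries, and passed the filter through the former. Its log2 fold change was -1.55 (SE 0.439, adjusted p = 0.0204 in edgeR), and the call was lost without EGFP- replicate 2 (adjusted p = 0.12), EGFP+ replicate 1 (0.0747) or EGFP+ replicate 2 (0.0847) in edgeR, and in DESeq2 (0.0628). Over all alternatives its adjusted p was 0.0128 to 0.12. *Sparc*, the most abundant gene of the list, encodes a matricellular protein that binds the B chain. It had 2477 ± 412.1 and 3985 ± 504.4 normalized CPM (mean ± SD, n = 3), or 0.69 as log2 fold change, which stayed under the 2-fold threshold (SE 0.185, adjusted p = 0.0152 in edgeR).

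The signal transducers of PDGF receptors include adaptors, RAS and MAP kinases, phosphoinositide 3-kinase subunits and STAT factors. Beside the counts of this and the other lists, 3.44% of all tested genes were called higher and 6.37% lower. Of 36 genes, 35 were tested, 2 were called higher and 0 lower (4 higher and 2 lower at an unadjusted p under 0.05 in edgeR, 2 higher and 0 lower in DESeq2), and the median log2 fold change was 0.11. *Stat5a*, which encodes a transcription factor, had 17, 17 and 16 tags in EGFP- replicates 1, 2 and 3 and 46, 48 and 31 tags in EGFP+ replicates 1, 2 and 3. Each EGFP+ library was above each EGFP- library, and the log2 fold change was 1.48 (SE 0.291, adjusted p = 0.0014 in edgeR). *Cbl*, which encodes a ubiquitin ligase that marks activated receptors for degradation, had 35, 60 and 51 tags in EGFP- and 84, 105 and 87 tags in EGFP+ libraries. Its log2 fold change of 1.08 (SE 0.214, adjusted p = 0.0015 in edgeR) stood close to the threshold and fell under it without EGFP- replicate 1 (0.92), without EGFP+ replicate 2 (0.97) and when libraries were scaled by their totals only. The most abundant transducer gene was *Jak1*, with 347.2 ± 39.8 and 383.5 ± 69.8 normalized CPM (mean ± SD, n = 3), or 0.14 as log2 fold change (95% interval -0.22 to 0.51).

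Phosphatases, Sprouty proteins and other negative regulators of PDGF receptor signalling formed a list of 15 genes, 13 of them tested. None was called in edgeR or DESeq2, while 3 were higher and 3 lower at an unadjusted p under 0.05 in edgeR, and the median log2 fold change was 0.03. Without EGFP- replicate 2 and without EGFP+ replicate 3, *Ptpn1* was called higher and *Lrig1* lower, 2 genes named after their values were seen. *Dusp1*, the most abundant of these genes, encodes a MAP kinase phosphatase. Its level was 840.8 ± 28.0 normalized CPM in EGFP- and 628.7 ± 46.5 normalized CPM in EGFP+ cells (mean ± SD, n = 3), or -0.42 as log2 fold change (SE 0.158, adjusted p = 0.085 in edgeR).

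Growth factors such as PDGF are known to induce immediate early genes within minutes. According to the methods, the colon was digested with enzymes and the cells were enriched with magnetic beads before sorting. Neither the part of these steps nor that of PDGF in the levels of such genes was tested. All 11 listed genes were tested, 1 was called higher and 2 were called lower, and the median log2 fold change was -0.62. *Ier3* had 717, 563 and 556 tags in EGFP- replicates 1, 2 and 3 and 1607, 1254 and 1889 tags in EGFP+ replicates 1, 2 and 3, with 1.52 as log2 fold change (SE 0.194, adjusted p = 1.92e-05 in edgeR). *Junb*, an AP-1 subunit gene, had 1438, 1626 and 1580 tags in EGFP- and 638, 715 and 713 tags in EGFP+ libraries, and *Myc* had 114, 83 and 120 against 47, 46 and 43 tags. For both, the EGFP+ libraries were below all EGFP- libraries. Their log2 fold changes, -1.01 (SE 0.162) and -1.06 (SE 0.198), were next to the threshold of 2-fold. *Junb* was not called without EGFP- replicate 2 (-0.94), EGFP+ replicate 1 (-0.99) or EGFP+ replicate 3, without a filter (-0.97) or with a filter of 10 tags in 1 library, and *Myc* was not called without EGFP- replicate 1 (-0.95) or EGFP+ replicate 3 (-0.98). *Fos*, the most abundant of the list in EGFP- cells (in EGFP+ cells it was *Jun* at 3239 normalized CPM), had 4838 ± 578.6 and 2498 ± 233.1 normalized CPM (mean ± SD, n = 3), or -0.95 as log2 fold change, just under the threshold (SE 0.177, adjusted p = 0.000826 in edgeR). By adjusted p alone, 5 genes of the list were lower and 1 was higher. Without EGFP- replicate 3, *Fos*, *Fosb* and *Ier2* were called lower as well, which made 5, and without EGFP+ replicate 2 *Fos* and *Fosb* were, which made 4. In each of the other 4 fits without a library, 1 gene was called lower, which without EGFP+ replicate 3 was *Srf*. *Fosb*, *Ier2* and *Srf* were named after their values were seen.

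**Figure D2:**
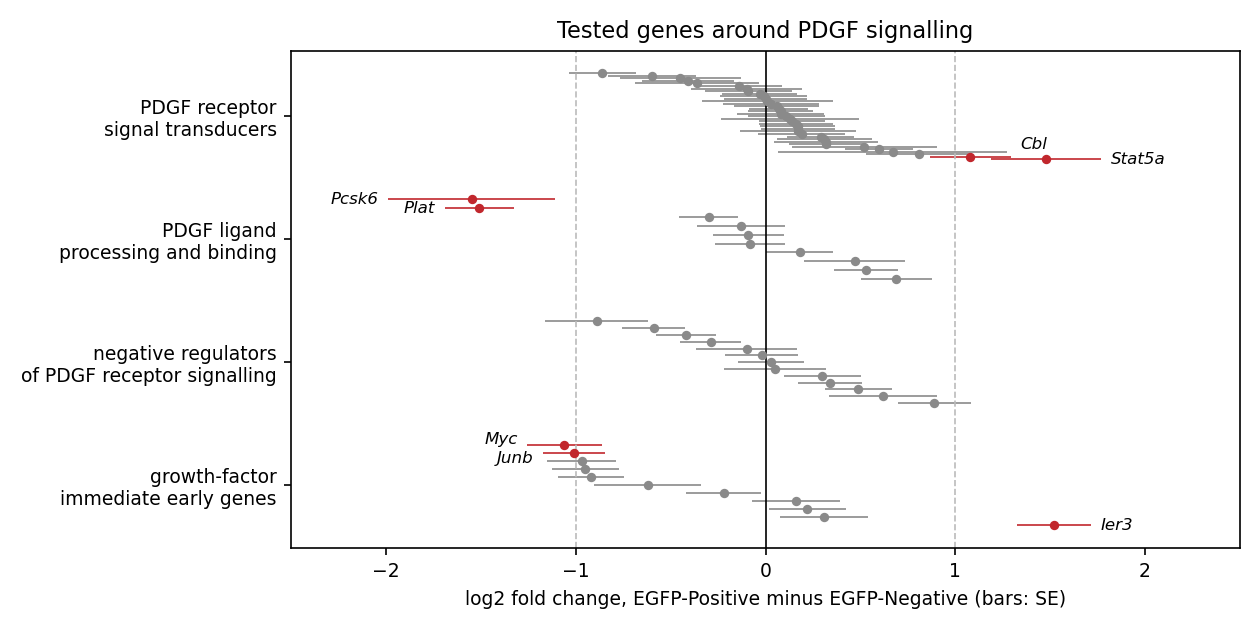
Log2 fold change (EGFP-Positive minus EGFP-Negative, horizontal axis) of each tested gene in 4 lists of genes around PDGF signalling, where points are genes ordered by value within a list, bars are SE, dashed lines mark a 2-fold difference and red points are called genes. Called genes lie on both sides, with *Stat5a* at 1.48 and *Ier3* at 1.52, and *Pcsk6* at -1.55 and *Plat* at -1.51.

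Markers of other stromal cells in the gate were read beside these results. Fibroblast markers such as *Dcn* and collagen genes were abundant in both groups, with summed levels of 26100, 26680 and 28990 normalized CPM in EGFP- replicates 1, 2 and 3 and 45250, 37720 and 33160 normalized CPM in EGFP+ replicates 1, 2 and 3. Of the 12 genes, 2 were called higher (*Col3a1* and *Pdpn*) and 0 lower, where 5 were higher and 2 lower at an unadjusted p under 0.05 in edgeR and 2 and 0 were called in DESeq2. Without EGFP- replicate 1, 0 genes of this list were called, and without EGFP+ replicate 1 *Pdpn* was not (0.96). With library totals only, *Col3a1* (0.96) and *Pdpn* (0.97) were not called. *Thy1* was called higher without EGFP- replicate 3 or EGFP+ replicate 2, and *Dpt* lower without EGFP+ replicates 2 or 3, both named after their values were seen. *Dcn* was the most abundant, at 12090 in EGFP- and 19220 normalized CPM in EGFP+ cells.

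Smooth muscle markers and most pericyte markers moved in the direction of *Pdgfa* and *Pdgfc*. All 9 smooth muscle genes were called lower in EGFP+ cells, and their summed level was 2767, 3410 and 4261 normalized CPM in EGFP- replicates 1, 2 and 3 and 115.5, 178.7 and 375.7 normalized CPM in EGFP+ replicates 1, 2 and 3. The mean sum was 15.6-fold lower in EGFP+ cells, and 12.6- to 23.6-fold lower with a library left out, the most without EGFP+ replicate 3. The most abundant gene in EGFP- cells, *Myh11*, had 931.3 and 39.2 normalized CPM, and in EGFP+ cells *Tagln* was the most abundant at 51.4 normalized CPM. Of 9 tested pericyte genes of 10, 7 were called lower and 0 higher (2 higher and 7 lower at an unadjusted p under 0.05 in edgeR, 0 and 7 called in DESeq2). Their sum was 2556, 2230 and 2050 normalized CPM in EGFP- and 956, 797 and 703.8 normalized CPM in EGFP+ libraries. *Rgs5* was the most abundant in EGFP- cells, with 1648 and 190.1 normalized CPM, and without it the mean sums were 631 and 628.9 normalized CPM. The other 2 tested genes went the opposite way under 2-fold, *Kcnj8* with 0.71 (adjusted p = 0.0394 in edgeR) and *Abcc9* with 0.66 as log2 fold change (adjusted p = 0.0167 in edgeR). *Abcc9*, with 262.9 and 416.6 normalized CPM, was the most abundant pericyte gene in EGFP+ cells. *Higd1b*, under the filter, was called lower in the fit without a filter (adjusted p = 0.000161 in edgeR). Of the genes called lower, 5 of 7 pericyte genes (all but *Rgs5* and *Cspg4*) and 2 of 9 smooth muscle genes (*Cnn1* and *Lmod1*) reached 10 tags in at most 1 EGFP+ library and passed the filter through the EGFP- libraries, so these counts are no measure of how often such genes were lower. *Trpc6* lost its call without EGFP- replicate 3 (adjusted p = 0.0569), EGFP+ replicate 2 (0.0639) or EGFP+ replicate 3 (0.0638) in edgeR, which left 6, and its adjusted p over all alternatives was 0.00318 to 0.0639. No marker of either list was at 0 in all libraries of a group. Mesothelial genes, of cells that the gate does not select against, had the same direction but stayed under the filter, with at most 10 tags in a library. Led by *Wt1*, they summed to 13.4, 4.71 and 15.6 normalized CPM in EGFP- and 0, 0 and 1.91 normalized CPM in EGFP+ libraries, where *Msln*, *Upk3b* and *Lrrn4* were at 0. In the fit without a filter, *Wt1* and *Upk3b* were called lower (adjusted p = 0.0194 and 0.0316 in edgeR) and *Msln* and *Lrrn4* were not called. *Upk3b* lost its call with replicate numbers entered as a block (adjusted p = 0.166 in edgeR). The part of these cell types in the lower *Pdgfa* and *Pdgfc* was not tested.

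Interstitial cells of Cajal were represented by 4 genes. *Kit*, *Ano1* and *Etv1* were called lower and *Gja1*, the most abundant, was called higher, from 419.6 to 1290 normalized CPM. Because of *Gja1* the summed level went the other way than the called majority, with 675, 583.2 and 697.1 normalized CPM in EGFP- replicates 1, 2 and 3 and 1381, 1516 and 1064 normalized CPM in EGFP+ replicates 1, 2 and 3. Without *Gja1* the mean sums were 232.2 in EGFP- and 30.7 normalized CPM in EGFP+ cells. *Kit* and *Ano1* reached 10 tags in at most 1 EGFP+ library and passed the filter through the EGFP- libraries. *Etv1* was not called without EGFP- replicate 1 (log2 fold change -0.91).

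Fibroblasts of the colon are commonly divided by their *Pdgfra* level into a subepithelial population with high *Pdgfra*, which makes BMP and WNT ligands, and populations with low *Pdgfra* that include *Cd81*- and *Pi16*-positive cells. Of 11 genes of the first kind, 8 were tested, and *Bmp5*, *Bmp7*, *Wnt5a*, *Nrg1* and *Cxcl14* were called higher and 0 lower (5 higher and 1 lower at an unadjusted p under 0.05 in edgeR, 5 and 0 called in DESeq2). The summed level was 654, 642.6 and 466.4 normalized CPM in EGFP- replicates 1, 2 and 3 and 2960, 2410 and 2031 normalized CPM in EGFP+ replicates 1, 2 and 3, a 4.2-fold higher mean (3.78- to 4.57-fold with a library left out). Most of this difference came from *Nrg1*, an EGF-family ligand gene and the most abundant at 184 and 1584 normalized CPM, without which the mean was 2.19-fold higher (403.6 and 883 normalized CPM). *Dmkn* went the other way, with 8, 6 and 7 tags in EGFP- and 0 tags in EGFP+ libraries, and was called lower in the fit without a filter (adjusted p = 0.000649 in edgeR). *Foxl1*, a transcription factor gene by which subepithelial cells are often recognized, was under the filter. *Bmp5* was not called without EGFP- replicate 3 (log2 fold change 0.86) or with library totals only (0.99), and *Bmp3* was called lower without EGFP+ replicate 3. Of the 8 genes of the second kind, *Cd81*, *Cd34*, *Ackr4*, *Pi16* and *Clec3b* were called lower and *Grem1* was called higher, with 3 of these 5 called lower in DESeq2 (not *Ackr4* and *Pi16*). *Pi16* reached 10 tags in 1 EGFP+ library only. The groups overlapped for *Ackr4*, with EGFP- replicate 3 at 82.93 and EGFP+ replicate 1 at 97.51 normalized CPM. They also overlapped for *Pi16*, with EGFP- replicate 1 at 39.15 and EGFP+ replicate 3 at 40.05 normalized CPM. *Cd81* was not called without EGFP- replicate 3 (-0.95), EGFP+ replicate 1 (-0.98) or EGFP+ replicate 2 (-0.94), and *Cd34* without EGFP- replicate 2 or EGFP+ replicate 1 (-0.91). This list summed to 6204, 6914 and 7399 normalized CPM in EGFP- and 6118, 6889 and 5239 normalized CPM in EGFP+ libraries, led by *C3*, without which the mean sums were 2958 and 3381 normalized CPM. Beside these shifts in both lists, *Pdgfra* itself differed by less than 2-fold, and the part of these fibroblast populations in its level was not tested.

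**Figure D3:**
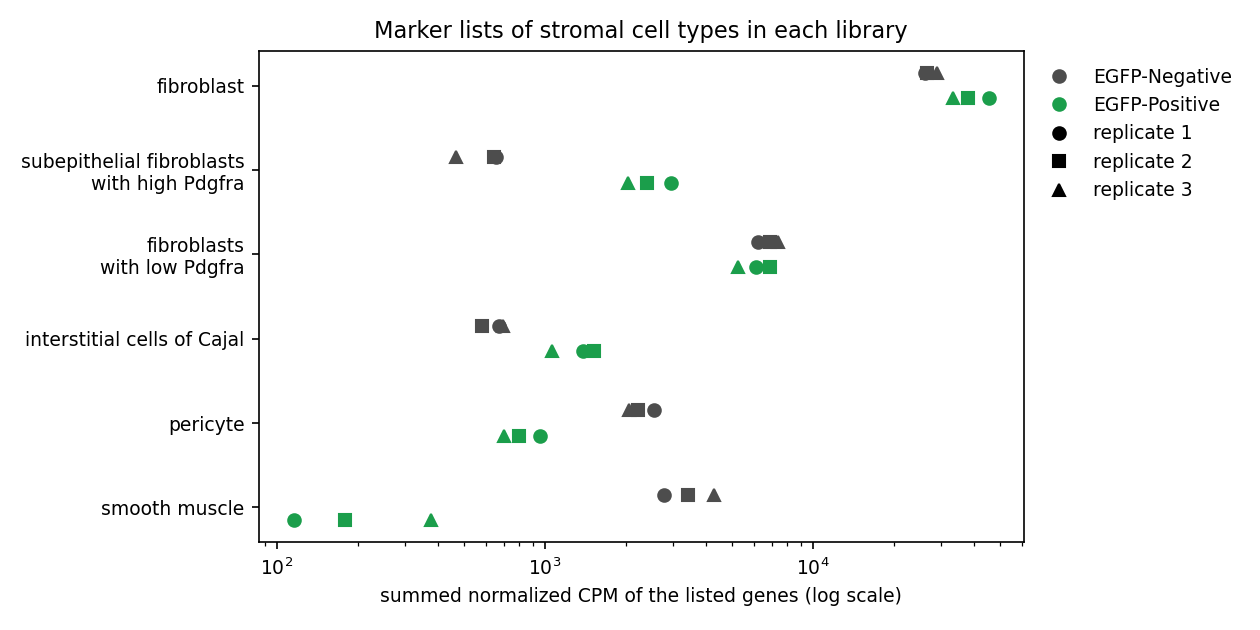
Summed normalized CPM (horizontal log axis) of 6 marker lists of stromal cell types, each symbol being a library. Smooth muscle markers were between 115.5 and 375.7 in EGFP-Positive and between 2767 and 4261 in EGFP-Negative libraries, and markers of subepithelial fibroblasts with high *Pdgfra* were between 2031 and 2960 in EGFP-Positive and between 466.4 and 654 in EGFP-Negative libraries.

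Markers of blood, endothelial and epithelial cells were mostly under the filter. Of the endothelial genes, which mark cells known to make PDGF-B, 5 of 7 were analysed here, none had more than 7 tags in a library, and *Pecam1* and *Emcn* were at 0 in EGFP+ libraries. Their sum was 8.59, 6.59 and 1.64 normalized CPM in EGFP- and 0, 2.03 and 1.91 normalized CPM in EGFP+ libraries, with *Emcn* the most abundant in EGFP- and *Kdr* in EGFP+ cells. Megakaryocyte and platelet genes, another known source of PDGF-B, of which 3 of 5 were analysed here, summed to 6.68, 5.65 and 10.7 normalized CPM in EGFP- and 8.48, 11.2 and 6.68 normalized CPM in EGFP+ libraries, led by *Itga2b* in EGFP- and *Gp1bb* in EGFP+ cells. Leukocyte genes summed to between 15.3 and 40.3 normalized CPM in the 6 libraries, led by *Cd68* in EGFP- and *S100a8* in EGFP+ cells, with *Cd3e* at 0 in EGFP+ libraries. Red cell genes, led by *Hbb-bs*, summed to 57.3, 0 and 189.7 normalized CPM in EGFP- libraries. In EGFP+ libraries they summed to 9.54, 0 and 11.4 normalized CPM, with *Alas2* at 0. *Hba-a1* and *Hbb-bs* were called lower in the fit without a filter (adjusted p = 7.83e-14 and 1.08e-17 in edgeR), although both were at 0 in EGFP- replicate 2. These small values do not measure the wide spread between the EGFP- libraries of both genes. Of the 7 epithelial genes analysed here, of 8 listed, only *Lgals4* passed the filter and was called lower, a call that was lost without EGFP- replicate 3 (adjusted p = 0.0605), EGFP+ replicate 1 (0.0742) or EGFP+ replicate 2 (0.0678) in edgeR, where all alternatives gave 0.00319 to 0.0742. No tag of the epithelial gene *Krt20* was found in EGFP+ libraries, and the sum was 31.5, 24.5 and 45.2 normalized CPM in EGFP- and 9.54, 13.2 and 21.9 normalized CPM in EGFP+ libraries. The part of these cells in the results was not tested.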

How the data were processed

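Libraries of EGFP- and EGFP+ cells were grouped by their labels. According to the methods, the authors used Cutadapt 1.18 for trimming and Bowtie2 2.2.5 for mapping to RefSeq RNA (mm10) in one orientation, and deposited tag counts per gene symbol without normalization. How tags with several matches were counted is not given in the sources used here. Members and gene lists were chosen with earlier results of these data known.

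Counts were compared in R 4.3.3 with edgeR 4.0.16 (TMM, glmQLFit, glmQLFTest, Benjamini-Hochberg adjustment over the 9334 genes that reached 10 tags in 3 or more libraries). Thresholds follow the methods, whose printed filter of 10 tags was read as keeping such genes. Library sizes were the totals over tested genes. Totals over all symbols were also tried, and the choice between them was made after both sets of values had been seen. Named genes are the 6 members, *Il11*, called and most abundant genes of each list, and the 3 genes with the highest and lowest r. Some genes, and a list that needs them, are not reported here. Other named genes, the promoter and its motifs were chosen after their values were seen. Counting intervals are exact binomial intervals of pooled tags. Positions come from GENCODE M21 (GRCm38).

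The labels number libraries 1 to 3 in both groups. Across 5063 genes, deviations of same-numbered libraries from their group means had r of 0.231, 0.186 and 0.268. The numbers were entered as a block in an alternative fit. The labels and methods do not say that same-numbered libraries share a mouse, and these r values cannot show it. Correlations across genes do not come from independent replicates. Other alternatives were RLE, library totals, iterative TMM, 3 other filters, DESeq2 1.42.0, adjusted p alone and each library left out in turn on the genes that passed the filter with 6 libraries. Scaling without pericyte and smooth muscle genes, library sizes over all symbols, and list sums without each library or the most abundant gene were added after seeing the data.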

Additional observations from a re-analysis of the deposited data

How the results depend on the processing

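The directions of *Pdgfa*, *Pdgfc*, *Pdgfd*, *Pdgfra*, *Pdgfb* and *Pdgfrl* were the same under all alternatives that gave a value, and *Pdgfa* and *Pdgfc* kept their calls under each of them. With replicate numbers entered as a block, the log2 fold changes were -1.58 for *Pdgfa*, -3.43 for *Pdgfc*, -0.54 for *Pdgfd* and 0.22 for *Pdgfra*. In the fit without a filter, the block gave -2.60 for *Pdgfrl* and left *Pdgfb* uncalled (adjusted p = 0.228 in edgeR). The block gave 337 higher and 648 lower genes and changed no call among the members and the tested genes of the lists. With the adjusted p alone, 638 genes were higher in place of 321, because genes under 2-fold then count. With each library left out in turn, the log2 fold change ranged from -1.99 to -1.36 for *Pdgfa* and -3.81 to -3.23 for *Pdgfc*. It ranged from -0.86 to -0.16 for *Pdgfd*, 0.13 to 0.32 for *Pdgfra* and -5.37 to -1.97 for *Pdgfrl*. *Pdgfrl* was called only without EGFP+ replicate 3 (-5.37), the library with its EGFP+ tags. The number of higher genes was 267 to 329 and that of lower genes 483 to 580. Scaling without pericyte and smooth muscle genes, and library sizes summed over all symbols, both chosen after seeing the data, each left *Pdgfa* at -1.57 and *Pdgfc* at -3.42 and gave 322 higher and 588 lower genes. The fitted values of *Pdgfc* and *Pdgfrl* rest on libraries with at most 2 EGFP+ tags and depend on the prior count. No fitted value is given for *Pdgfb*, which had 0 tags in each EGFP+ library. *Pdgfb* and *Pdgfrl* could not be tested with the other filters or had no adjusted p in DESeq2 (*Pdgfb*). With each library left out, the mean sum of smooth muscle genes was 12.6- to 23.6-fold lower, and without its most abundant gene 13.8-fold lower.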
